A study of Mus musculus with 6 samples.

Results

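The transcripts of the proteins that read and erase methylation of histone H3 lysine 9 (H3K9) were examined in basal keratinocytes of mouse embryos with H3K9 methyltransferase genes targeted for deletion. The set holds 10 genes out of 55536 in the count table. They are the 3 heterochromatin protein 1 (HP1) genes *Cbx1*, *Cbx3* and *Cbx5*, the demethylase genes *Kdm3a*, *Kdm3b*, *Kdm4a*, *Kdm4b* and *Kdm4c*, and *Atrx* and *Daxx*. They were taken by name through their Ensembl identifiers. All 10 were among the 20622 genes with enough counts to test.

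Cells positive for Epcam and integrin α6 were sorted from dorsal skin of E16.5 embryos, and bulk RNA-seq was done on 3 Ctrl and 3 TKO libraries. The 6 libraries came from embryos that were *Suv39h1* f/f, *Suv39h2*-/- and *Setdb1* f/f and had received tamoxifen. TKO embryos also carried *K14CreERT2*, a recombinase driven by the keratin 14 promoter of basal keratinocytes and switched on by tamoxifen, and Ctrl embryos lacked it, so the comparison is between targeting of 3 methyltransferase genes and loss of *Suv39h2* alone. Recombination in such embryos can be mosaic, and each group held 1 female and 2 male libraries.

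Trimethylated H3K9 is the mark of constitutive heterochromatin. HP1 proteins bind it through a chromodomain, pair with each other and recruit further proteins, among them the methyltransferases that write the mark, so that reading and writing feed each other. KDM3 enzymes remove mono- and dimethylation of H3K9, KDM4 enzymes remove di- and trimethylation, and ATRX with DAXX places histone H3.3 in silent repeats and telomeres, ATRX itself binding trimethylated H3K9. The question put to the data was whether these transcripts differed between the Ctrl and TKO libraries.

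None of the 10 transcripts was called different. The fitted TKO level lay between 0.897 times (*Atrx*) and 1.06 times (*Kdm4c*) the Ctrl level. With edgeR's quasi-likelihood test, 0 of 10 passed an adjusted p of 0.05 with a change above 2-fold, a rule that 0.131% of all tested genes passed. At an unadjusted p of 0.05, 0 of 10 passed with edgeR, while 6.08% of tested genes passed with it. With DESeq2 0 of 10 passed as well, but the share of all tested genes that passed with DESeq2 is not given here. The TKO libraries lay wholly above or below the Ctrl libraries for 0 of 10 members, against 11.5% of tested genes (6.35% above and 5.11% below). A missed threshold does not show equal levels, so the 95% interval of each change is given with each gene.

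The targeted genes were read first as a check of the labels. *Setdb1*, an H3K9 methyltransferase gene, had 126, 118 and 121 CPM (read counts scaled to the library total, corrected by TMM) in Ctrl replicates 1 to 3 and 95.3, 62.3 and 74.9 CPM in TKO replicates 1 to 3. Every TKO library was below every Ctrl library, and the log2 change was -0.65 (SE 0.161), with an adjusted p of 0.286 by edgeR. *Suv39h1* differed by -0.10 (SE 0.137) and *Suv39h2*, disrupted in both groups, by 0.11 (SE 0.149). A transcript that keeps its other exons after a deletion can still be counted, so these levels do not measure the enzymes. In bulk libraries, less RNA per cell and fewer cells with the RNA cannot be told apart.

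Depth was high for these genes. Libraries held 102159175 to 136515436 counts, and the lowest count of any member in any library was 3578, where counting alone gives an error of 1.67%. Ranked by mean CPM among the tested genes, members lay from percentile 74.7 (*Kdm4c*) to percentile 99.1 (*Cbx5*). The spread between libraries, not counting, therefore limits the precision. TKO replicate 3 stood apart from the other TKO libraries: over all tested genes its counts differed from those of TKO replicates 1 and 2 by a chi-square per degree of freedom of 434 and 359, and from those of Ctrl replicate 3 by 137, while TKO replicates 1 and 2 differed by 90.3. The 3 identifiers with most counts took 5.65% of all counts in TKO replicate 3, against 11.6% and 10.1% in TKO replicates 1 and 2 and 8.86% in Ctrl replicate 3. Their part in these distances was not tested. Values without TKO replicate 3 are given with the other left-out libraries.

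The HP1 genes came first in the analysis, because their products read the mark directly. *Cbx5* (ENSMUSG00000009575, chr15:103099505-103148419, minus strand, GRCm39) encodes HP1α, the form most tied to constitutive heterochromatin. It had 464, 578 and 437 CPM in Ctrl replicates 1 to 3 and 563, 490.5 and 468 CPM in TKO replicates 1 to 3. The groups overlapped, with the highest and the lowest value both in Ctrl. The group means were 493 ± 74.8 and 507 ± 49.8 CPM (SD, n = 3 each), and the log2 change was 0.04 (SE 0.158, 95% interval -0.31 to 0.39).

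*Cbx1* (ENSMUSG00000018666, chr11:96679933-96700423, plus strand) encodes HP1β, which is found in both heterochromatin and euchromatin. Its Ctrl values were 94.3, 119 and 90.8 CPM, and its 3 TKO values all rounded to 103 CPM. The TKO libraries lay inside the Ctrl range, with an SD of 0.174 CPM against 15.1 CPM in Ctrl. An agreement that close between 3 libraries is tighter than for any other member, and the difference in spread was not tested. The coefficient of variation in TKO was 0.169%, below the 0.366% that counting alone gives at the highest count of any member. The closeness is therefore not read as a trait of TKO. Its log2 change was 0.03 (SE 0.136, interval -0.28 to 0.33).

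*Cbx3* (ENSMUSG00000029836, chr6:51447082-51460691, plus strand) encodes HP1γ, which is also found over transcribed genes. It varied most of the HP1 genes, with 88.2, 127 and 70.9 CPM in Ctrl and 97.5, 99.1 and 64.4 CPM in TKO. Its lowest libraries were replicate 3 of each group and its highest was Ctrl replicate 2. The log2 change was -0.13 (SE 0.233), with an interval of -0.65 to 0.39 that leaves room for a fall to 0.635 times the Ctrl level. Pseudogenes could have taken some *Cbx3* reads. The 8 annotated pseudogenes named after *Cbx3* together held at most 0.898% as many counts as *Cbx3* in any library, and copies under other names were not searched for. How the authors' counting shared reads between such copies was not given in the sources used here.

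**Figure D1:**
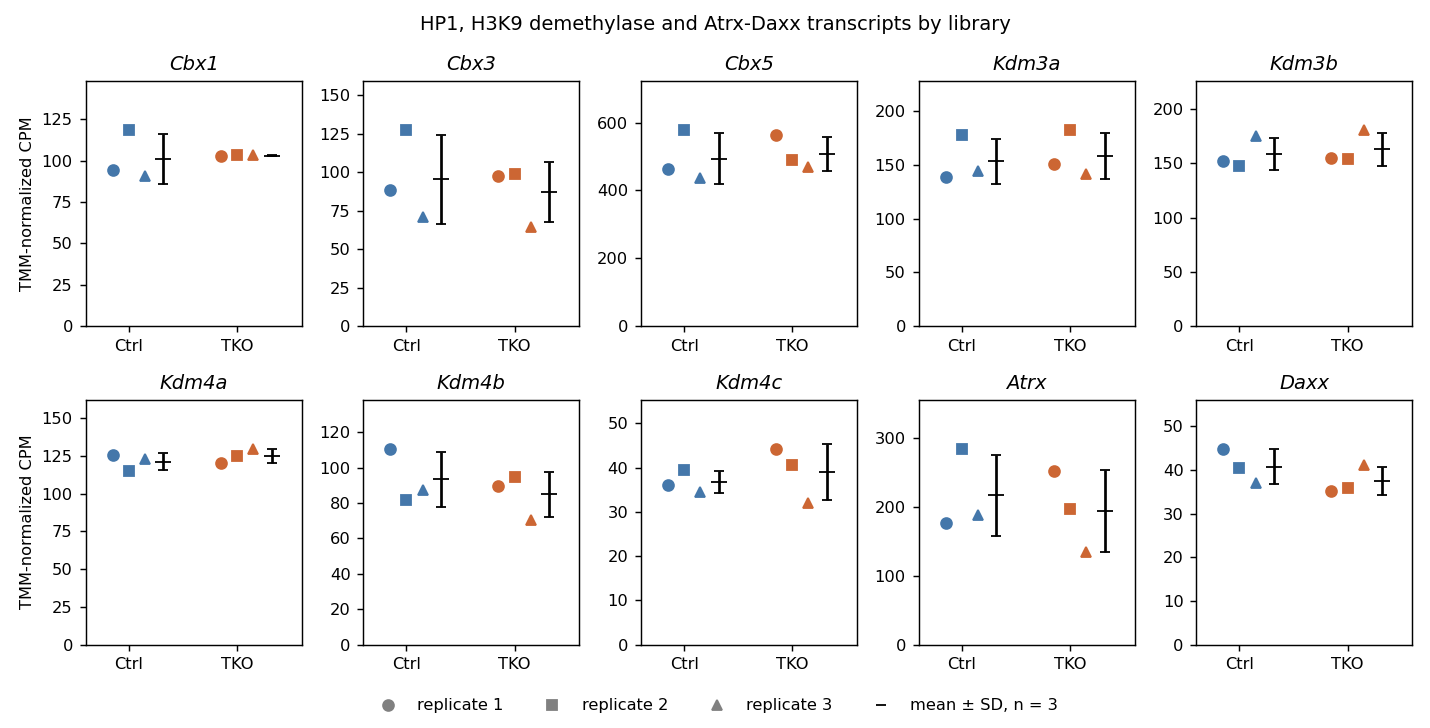
TMM-normalized CPM of each member in the 3 Ctrl (blue) and 3 TKO (orange) libraries; marker shapes give the replicate number and black bars the mean ± SD (n = 3), and each panel starts at 0. The groups overlap in all 10 panels, *Cbx1* sits at 103 CPM in every TKO library, and *Atrx* and *Cbx3* spread most.

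The KDM3 demethylases came next. *Kdm3a* (ENSMUSG00000053470, chr6:71565956-71610472, minus strand), known for its role in spermatogenesis and metabolism and as a hypoxia-induced gene, had 139, 177 and 144 CPM in Ctrl. Its TKO values were 150.4, 182 and 142 CPM. Replicate 2 was the highest library of each group. TKO minus Ctrl was 0.05 on the log2 scale (SE 0.152, interval -0.29 to 0.38).

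*Kdm3b* (ENSMUSG00000038773, chr18:34910036-34972064, plus strand), a widely expressed enzyme of the same family, had 152, 148 and 175 CPM in Ctrl and 154, 154 and 181 CPM in TKO. Here replicate 3 was the highest library of each group. *Kdm3b* had a log2 change of 0.04 (SE 0.133, interval -0.26 to 0.34). The means were 158 ± 14.7 and 163 ± 15.2 CPM (SD, n = 3 each).

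Among the KDM4 demethylases, *Kdm4a* (ENSMUSG00000033326, chr4:117994154-118037251, minus strand) was the steadiest transcript of the set. This enzyme removes di- and trimethylation from lysine 9 and also acts on lysine 36 of H3. Its values were 125, 115 and 123 CPM in Ctrl and 120.1, 125 and 129.8 CPM in TKO. All 6 libraries lay within 1.13-fold of each other, a coefficient of variation of 4.14%. The log2 change was 0.04 (SE 0.117), and its interval of -0.22 to 0.31 was the narrowest of the set.

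*Kdm4b* (ENSMUSG00000024201, chr17:56632913-56714338, plus strand), a close relative of *Kdm4a*, had 111, 82.0 and 87.2 CPM in Ctrl and 89.7, 94.7 and 70.5 CPM in TKO. Ctrl replicate 1 was the highest library and TKO replicate 3 the lowest, with the other 4 close together. Its log2 change was -0.14 (SE 0.164, interval -0.50 to 0.23).

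*Kdm4c* (ENSMUSG00000028397, chr4:74160734-74324757, plus strand) had the lowest CPM of the 3 KDM4 genes, at 36.1, 39.5 and 34.5 CPM in Ctrl and 44.3, 40.6 and 32.1 CPM in TKO. The TKO libraries held both its highest and its lowest value. Its log2 change of 0.09 (SE 0.157, interval -0.26 to 0.44) was the highest of the set, and the upper bound was 1.36-fold.

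*Atrx* (ENSMUSG00000031229, chrX:104841131-104973014, minus strand), which encodes a chromatin remodeler, was the most variable member. It had 176, 285 and 189 CPM in Ctrl and 252, 197 and 134 CPM in TKO. The highest library was 2.13 times the lowest, and a value above the other group's mean occurred in both groups. The log2 change was -0.16 (SE 0.249), and the interval of -0.71 to 0.40 was the widest, reaching down to 0.61 times the Ctrl level. Because *Atrx* is X-linked the male libraries were also fitted alone, 2 in each group, which gave -0.30 (SE 0.328). In Ctrl the female library was the lowest, at 176 CPM, and in TKO the female library lay between the males, at 197 CPM.

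*Daxx* (ENSMUSG00000002307, chr17:34128384-34134564, plus strand) encodes the histone chaperone that places H3.3 together with ATRX. It had 44.9, 40.3 and 37.1 CPM in Ctrl and 35.2, 35.9 and 41.0 CPM in TKO. TKO replicate 3 lay inside the Ctrl range and the other TKO libraries just below it. For *Daxx* the log2 change was -0.13 (SE 0.142, interval -0.44 to 0.19).

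**Figure D2:**
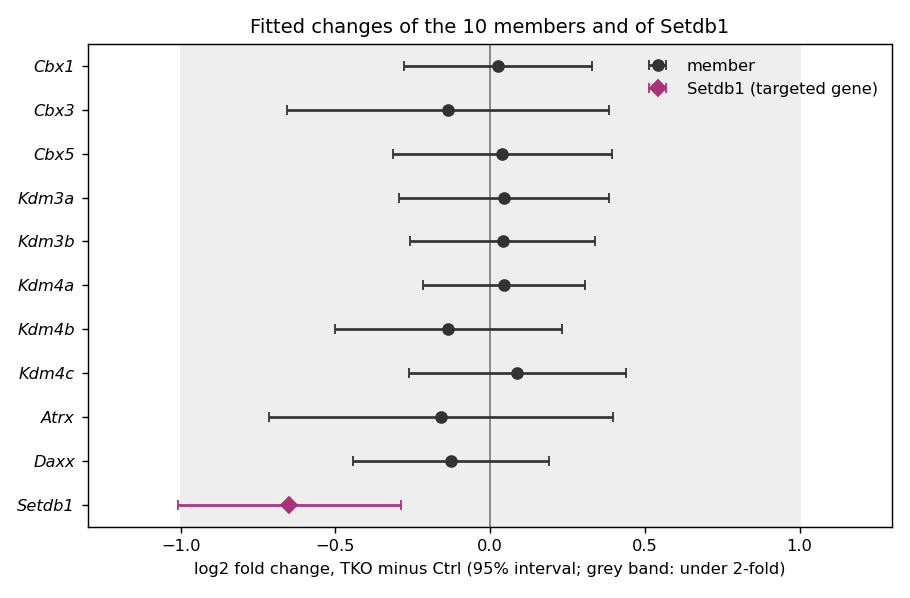
Fitted log2 fold change, TKO minus Ctrl (x axis), of the 10 members and of *Setdb1* (y axis), with 95% intervals from edgeR; the grey band marks changes under 2-fold. Every member's interval holds 0 and lies inside the band, from -0.71 to 0.44 at the extremes, while that of *Setdb1* lies below 0.

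Set side by side, the intervals limit how far the bulk levels of these transcripts can have moved, not the levels within recombined cells of a mosaic sample. Each was computed for its gene alone, with no correction for looking at 10. All 10 held 0, all 10 lay inside 2-fold in either direction, and 7 of 10 lay within 0.5 log2 units of 0. The exceptions were *Cbx3*, *Kdm4b* and *Atrx*, each with a lower bound of -0.50 or below. All adjusted p-values were 0.9998 by edgeR, and the unadjusted ones ran from 0.399 (*Daxx*) to 0.852 (*Cbx1*).

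The direction was mixed, with 6 of 10 members above 0 and a median log2 change of 0.03, against 0.01 over all tested genes. The median absolute change was 0.07 in the members and 0.20 over all tested genes, and all 10 members were under the latter. The members are also abundant genes. Over the 9230 tested genes with a mean of at least 10 CPM the median absolute change was 0.12, and 6 of 10 members were under it. The median SE of the members was 0.154, against 0.164 over those abundant genes and 0.292 over all tested genes.

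The spread between libraries was not shared evenly. The coefficient of variation over the 6 libraries was 26.5% for *Atrx* and 24.8% for *Cbx3*, and between 4.14% and 15.1% for the other 8. Ctrl replicate 2 was the highest library for *Cbx1*, *Cbx3*, *Cbx5* and *Atrx*. TKO replicate 3 was the lowest for *Cbx3*, *Kdm4b*, *Kdm4c* and *Atrx* but the highest for *Kdm3b* and *Kdm4a*. Neither library therefore moved all members the same way.

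Leaving out single libraries showed which estimates rested on these. Without Ctrl replicate 2 the change of *Atrx* went from -0.16 to 0.09 and that of *Cbx3* from -0.13 to 0.13. Without TKO replicate 3 they went to 0.05 and 0.04. *Cbx1* and *Cbx5* lay above Ctrl in every TKO library once Ctrl replicate 2 was left out, a pattern that 21.2% of tested genes then showed in either direction. Without TKO replicate 3, *Kdm4c* was wholly above and *Daxx* wholly below Ctrl, when 28.8% of tested genes did not overlap, and without Ctrl replicate 3 *Kdm3b* was wholly above, when 24.0% did not. No member reached an unadjusted p of 0.05 in any of these fits.

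**Figure D3:**
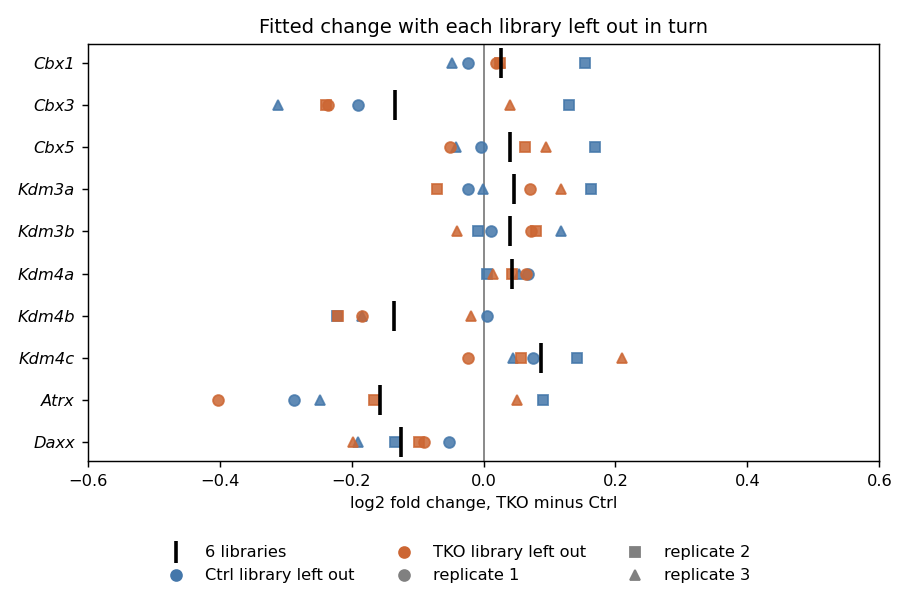
Fitted log2 fold change, TKO minus Ctrl (x axis), of each member (y axis) with all 6 libraries (black bar) and with each library left out in turn (blue, a Ctrl library left out; orange, a TKO library; shape, its replicate number). *Kdm4a* and *Daxx* keep their side of 0, and *Atrx* ranges from -0.40 to 0.09.

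Levels can be compared between genes only per length, and here the length used matters. Divided by all annotated exons of each gene, the Ctrl means were 47.7 CPM per kb for *Cbx5*, 20.2 for *Kdm4a*, 15.96 for *Cbx1*, 15.03 for *Cbx3* and 13.6 for *Kdm3a*. They were 10.8 CPM per kb for *Kdm3b*, 10.3 for *Daxx*, 9.92 for *Atrx*, 9.04 for *Kdm4b* and 2.52 for *Kdm4c*. *Cbx5* lay above *Kdm4a*, *Kdm4a* above *Cbx1*, and *Kdm4b* above *Kdm4c* with no overlap over the 6 libraries. The ranges of every other pair of neighbours overlapped. Within libraries *Kdm3a* was above *Kdm3b* in 6 of 6 and *Cbx1* above *Cbx3* in 5 of 6, and the remaining pairs kept their order in 3 or 4 of 6.

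Divided by the canonical transcript instead, a length chosen after the first order was seen, *Cbx1* led with 77.7 CPM per kb, ahead of *Cbx5* with 52.2 and *Cbx3* with 41.1. The annotated exons of *Cbx1* span 6343 bases and its canonical transcript 1303 bases, so which of the HP1 genes is the most abundant depends on the length used. *Kdm4c* was the lowest member by either length, with 8.63 CPM per kb by the canonical one.

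**Figure D4:**
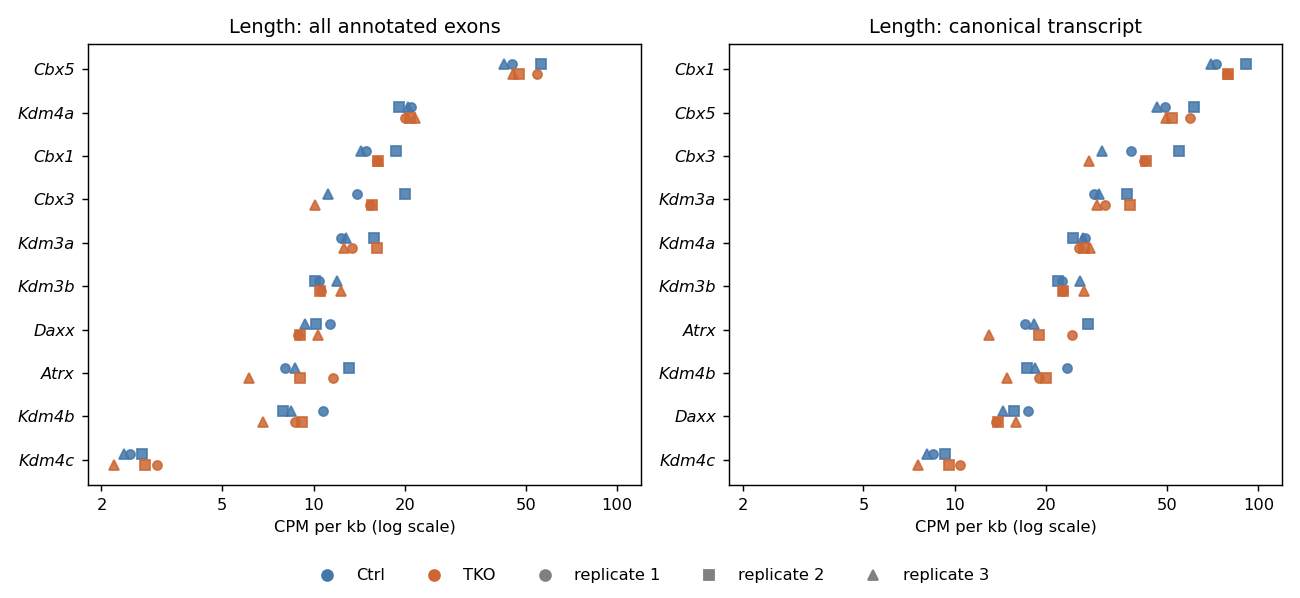
Levels of the members per length in CPM per kb (log-scaled x axis), by the length of all annotated exons (left) and of the canonical transcript (right), in Ctrl (blue) and TKO (orange) libraries; marker shapes give the replicate number. *Cbx5* leads by the first length and *Cbx1* by the second, and *Kdm4c* is lowest in both.

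The mix of the HP1 genes was alike in both groups within the spread between libraries. By annotated exons, *Cbx5* made up 60.8% ± 1.68 of the summed HP1 level per length in Ctrl and 62.1% ± 1.96 in TKO (SD, n = 3 each). The share of *Cbx1* was 20.4% ± 0.706 and 20.7% ± 1.93, and that of *Cbx3* 18.8% ± 2.37 and 17.2% ± 2.81. By the canonical transcripts the Ctrl shares were 45.6% for *Cbx1*, 30.7% for *Cbx5* and 23.7% for *Cbx3*. The TKO shares by that length were 46.6%, 31.5% and 21.8%. These shares are descriptions and were not tested.

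Several members share their start region with another gene. *Cbx3* starts head to head with *Hnrnpa2b1*, their annotated starts 967 bases apart and their spans overlapping by 968 bases. *Cbx5* does so with *Hnrnpa1*, 80 bases apart, and *Daxx* with the lncRNA *BC051226*, 494 bases apart. The hnRNP genes encode abundant RNA-binding proteins that shape splicing. The sources used here do not say whether the counting used strand, so reads in the overlaps cannot be assigned with certainty.

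*Hnrnpa2b1* had a log2 change of 0.03 (SE 0.235) and *Hnrnpa1* of 0.03 (SE 0.346), with adjusted p-values of 0.9998 by edgeR. Relative to the Ctrl mean, *Hnrnpa2b1* stood at 0.988, 1.22 and 0.793 in Ctrl replicates 1 to 3 and at 1.24, 1.13 and 0.695 in TKO replicates 1 to 3. *Cbx3* stood at 0.923, 1.33 and 0.742 in Ctrl and at 1.02, 1.04 and 0.675 in TKO on the same scale. Both genes of this pair were lowest in TKO replicate 3 and next lowest in Ctrl replicate 3.

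*Hnrnpa1* ran wider, at 1.03, 1.32 and 0.644 in Ctrl and 1.36, 1.18 and 0.528 in TKO, while *Cbx5* stayed between 0.887 and 1.17 over all 6 libraries. In the libraries where *Hnrnpa1* was lowest, TKO replicate 3 and Ctrl replicate 3, *Cbx5* was at 0.948 and 0.887 of the Ctrl mean. No correlation is given, since libraries of 2 groups are too few for one. Among the head-to-head neighbours, *Hnrnpa2b1* held up to 658% as many counts as *Cbx3* and *Hnrnpa1* up to 120% as many as *Cbx5*. *BC051226* held at most 11.4% as many counts as *Daxx* in any library. The part of neighbours' reads in the members' counts was not tested. Some annotated lncRNAs that overlap members were not in the count table, so their levels are unknown. Among them is *Gm62980*, which overlaps *Cbx5* by 2863 bases on the same strand. The other overlapping genes in the count table were low. The pseudogene *Gm14853*, inside *Atrx* on its strand, held at most 0.682% as many counts as *Atrx*, the antisense *Gm11517* at most 0.173% as many as *Cbx1*, and the antisense lncRNA *A230083N12Rik* at most 1.16% as many as *Kdm4c*.

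**Figure D5:**
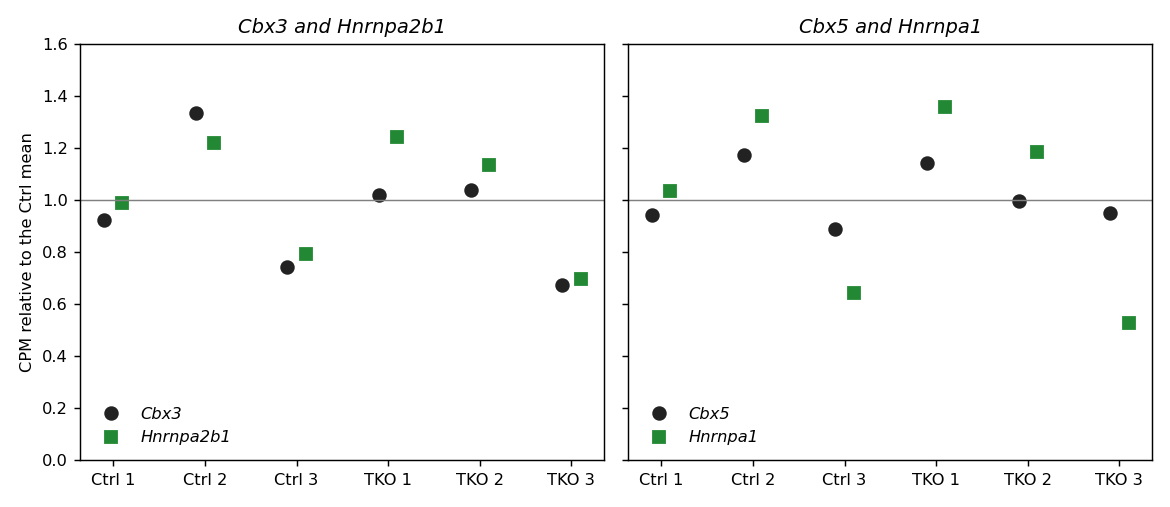
CPM relative to the Ctrl mean (y axis, from 0) in each library (x axis) for *Cbx3* and its head-to-head neighbour *Hnrnpa2b1* (left) and for *Cbx5* and *Hnrnpa1* (right); the line marks the Ctrl mean. *Hnrnpa1* falls to 0.528 in TKO replicate 3, where *Cbx5* is at 0.948.

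The sequences in front of 4 starts are shown because they belong to the cases contrasted above. One is the *Hnrnpa1* window, labelled Cbx5-Hnrnpa1 interval because *Cbx5* starts head to head with that gene. The others belong to *Cbx1*, an HP1 gene with no such partner, *Kdm4a*, the steadiest member, and *Atrx*, the most variable. All 4 are RefSeq windows (table build GRCm38.p6) that matched GRCm39 exactly once, cut to the bases before the start outside coding-gene exons. They are written 5′ to 3′ on the strand of the named gene, which is *Hnrnpa1* for the interval. The interval lies beyond the annotated *Cbx5* start and inside the widest annotated span of *Hnrnpa1* (chr15:103148339-103155125), in front of the RefSeq start of *Hnrnpa1*. Whether it acts on *Cbx5* was not tested, and the 2 RefSeq windows of *Cbx5* are not shown. Capitals mark the GC box, whose letters are GGGCGG, and the CCAAT box, named for its letters, on either strand.
Cbx5-Hnrnpa1 interval, chr15:103148574-103148812, plus strand: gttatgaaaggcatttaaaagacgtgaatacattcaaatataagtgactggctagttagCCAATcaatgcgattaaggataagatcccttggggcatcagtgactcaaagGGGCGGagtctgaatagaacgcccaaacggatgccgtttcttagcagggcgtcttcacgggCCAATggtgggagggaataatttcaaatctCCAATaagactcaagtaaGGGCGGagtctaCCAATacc
Cbx1, chr11:96679711-96679932, plus strand: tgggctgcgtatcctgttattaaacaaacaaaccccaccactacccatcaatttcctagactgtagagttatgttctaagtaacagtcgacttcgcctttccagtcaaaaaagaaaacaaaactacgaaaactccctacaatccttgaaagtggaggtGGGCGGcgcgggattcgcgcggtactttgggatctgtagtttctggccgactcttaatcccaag
Kdm4a, chr4:118037252-118037490, minus strand: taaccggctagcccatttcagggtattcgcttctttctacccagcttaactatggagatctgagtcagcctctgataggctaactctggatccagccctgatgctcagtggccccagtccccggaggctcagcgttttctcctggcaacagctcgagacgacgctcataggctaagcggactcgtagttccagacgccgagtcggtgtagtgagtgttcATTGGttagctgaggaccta
Atrx, chrX:104973015-104973228, minus strand: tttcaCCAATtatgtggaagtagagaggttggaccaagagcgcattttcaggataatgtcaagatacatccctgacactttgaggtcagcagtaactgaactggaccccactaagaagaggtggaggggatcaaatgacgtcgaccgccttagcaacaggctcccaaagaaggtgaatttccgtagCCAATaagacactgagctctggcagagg

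The *Hnrnpa1* window, labelled Cbx5-Hnrnpa1 interval, held 4 CCAAT boxes and 2 GC boxes. The *Cbx1* window held 1 GC box, the *Kdm4a* window 1 CCAAT box and the *Atrx* window 2 CCAAT boxes. Of the 10 members, 8 had windows in the RefSeq table, and *Kdm3b* and *Kdm4b* had none. In the 250 bases before the start, counting a gene with several windows once, 5 of the 8 held the GC box and 5 the CCAAT box, which 32.7% and 33.8% of all 32851 windows held. The ETS core CGGAAG was found for 3 of the 8 (13.6% of all windows), the E box CACGTG for 2 (6.02%) and TATAAA for 0 (12.4%). All were searched on both strands. Genes with several windows had more chances to hold a motif, and a match is a run of letters, not a shown binding site.

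Genes around the members were read from lists written by hand. The 6 companion lists of readers, erasers, partners and chaperones held 45 genes, all tested. By edgeR 0 of 45 were called, 1 was higher and 0 lower at an unadjusted p of 0.05 (4.06% and 2.02% of tested genes), and the median log2 change was 0.05.

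Among the other H3K9 demethylases, 0 of 7 passed. They ran from *Kdm4d*, at most 0.172 CPM in any library and 0 in replicate 3 of each group, to *Hr* at 0.23 (SE 0.196). *Hr* encodes the hairless protein, which acts in the hair cycle. *Kdm1a*, the flavin-dependent demethylase LSD1, differed by 0.05 (SE 0.117). The other 7 JumonjiC demethylases, which act on other lysines, were all above 0 and none passed, from *Kdm5b* at 0.00 (SE 0.134) to *Kdm6b* at 0.25 (SE 0.189), an eraser of lysine 27 methylation.

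Other readers of H3K9 methylation ran from *Cdyl* at -0.14 (SE 0.131) to *Tnrc18* at 0.10 (SE 0.152), with 0 of 5 past an unadjusted p of 0.05. The HP1 partners ran from *Trim28*, the corepressor that brings SETDB1 to its targets, at -0.09 (SE 0.149) to *Adnp*, a partner of HP1 and CHD4, at 0.39 (SE 0.188). *Adnp* had 14.0, 9.97 and 14.6 CPM in Ctrl and 15.7, 18.4 and 16.48 CPM in TKO, all TKO libraries above Ctrl, with an adjusted p of 0.871 by edgeR. Of the 11 partners, 0 passed the unadjusted threshold.

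The chromobox genes of the polycomb complexes, relatives of the HP1 genes that bind lysine 27 methylation, ran lower, with 1 of 5 above 0. They spanned *Cbx8* at -0.28 (SE 0.201) to *Cbx7* at 0.09 (SE 0.247), and none passed. Histone H3.3 genes and chaperones ran from *H3-3a* at -0.31 (SE 0.179) to *Pml* at 0.35 (SE 0.148). *Pml*, the organizer of the nuclear bodies where DAXX gathers, had 39.0, 33.7 and 41.8 CPM in Ctrl and 43.0, 49.97 and 53.5 CPM in TKO. It was the 1 companion gene past an unadjusted p of 0.05, at an adjusted p of 0.783 by edgeR.

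The labelled cell type was checked against its markers. Basal keratinocyte genes were high in both groups, with *Krt5* at 8179 to 12318 CPM in Ctrl and 6994 to 9022 CPM in TKO. Of the 8 basal genes 1 was lower at an unadjusted p of 0.05, *Krt15*, with 2716, 2579 and 2089 CPM in Ctrl and 901, 792 and 1573 CPM in TKO (log2 change -1.18, SE 0.256, adjusted p of 0.185 by edgeR). Suprabasal keratins were high as well. *Krt1* averaged 9941 CPM in Ctrl and 6974 CPM in TKO and *Krt10* averaged 8472 and 6349 CPM, and these were the 2 of 6 suprabasal genes that were lower at that threshold. *Xist* and the Y-linked *Kdm5d* matched the labelled sex of all 6 libraries.

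Markers of other cell types were low, apart from fibroblast genes, but several lists moved with the groups. The summed level of 6 skeletal muscle genes was 3.05 to 10.1 CPM in Ctrl and 30.9 to 32.5 CPM in TKO. *Myh3* was called, and *Ttn* and *Acta1* were higher at an unadjusted p of 0.05. That of 5 Merkel cell genes was 6.94 to 8.19 CPM in Ctrl and 1.26 to 2.88 CPM in TKO, with 4 of 4 tested lower at that threshold and *Krt20* at 0 in TKO replicates 1 and 2.

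Endothelial genes summed to 24.9 to 34.9 CPM in Ctrl and 23.8 to 61.2 CPM in TKO. All 4 were above 0, and *Cdh5* passed the unadjusted threshold at 0.91 (SE 0.370). Melanocyte genes summed to 6.36 to 12.1 CPM and 11.04 to 13.1 CPM, with 1 of 5 higher at that threshold, *Mlana* at 3.13 (SE 0.856), which had at most 0.167 CPM in Ctrl and at least 0.304 CPM in TKO. Immune genes summed to 3.73 to 8.20 CPM and 3.35 to 11.2 CPM, erythroid genes to 17.5 to 58.0 CPM and 54.8 to 108 CPM, and fibroblast genes to 1203 to 3358 CPM and 2162 to 2807 CPM, and none of these passed. The part of any of these in the members' values was not tested.

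A list of proliferation genes was set beside the HP1 genes. The summed level of its 10 genes was 1779, 2310 and 1505 CPM in Ctrl replicates 1 to 3 and 2088, 1865 and 1653 CPM in TKO replicates 1 to 3. The summed HP1 level was 647, 824 and 599 CPM in Ctrl and 763, 693 and 635 CPM in TKO. Both sums ordered the 6 libraries identically, from Ctrl replicate 3 up to Ctrl replicate 2, an order noticed after the values were seen. The sums of the fibroblast, basal keratinocyte, suprabasal keratinocyte and HP1 partner lists gave other orders. *Mki67* and *Top2a* had the highest CPM in the proliferation list and *Cbx5* among the HP1 genes. The part of proliferation in the HP1 values was not tested. Of the 10 proliferation genes, 1 was past an unadjusted p of 0.05, *Rrm2* at 0.35 (SE 0.133), and the lowest was *Mcm6* at -0.22 (SE 0.142).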

How the data were processed

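Groups, replicate numbers and sexes came from the labels. The authors depleted rRNA, trimmed paired-end reads with fastp, used STAR for alignment, and deposited unscaled read counts for each Ensembl identifier. The labels name GRCm38 and the methods GRCm39, and the counting program, annotation and strand setting are not given in the sources used here. Symbols and positions came from GENCODE vM39 (GRCm39), which matched 51477 of 55536 identifiers.

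Counts were filtered with filterByExpr (minimum 10, total 15), scaled by TMM and fitted with edgeR 4.0.16 glmQLFit (robust) and glmQLFTest in R 4.3.3, with Benjamini-Hochberg adjustment over 20622 genes. A call needed an adjusted p under 0.05 together with a log2 change beyond 1 in either direction. The SE is the log2 change divided by the square root of F. DESeq2 1.42.0, other scalings and filters, the replicate block, sex, and each library left out were alternatives.

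The members and lists were chosen with earlier results of these data known. Named genes are the members, their head-to-head or overlapping neighbours, the targeted genes, and the highest, lowest and unadjusted-threshold genes of each companion list; others named were chosen after their values were seen. Replicates are separate samples. The labels do not say whether each is 1 embryo, so p-values measure the spread between these samples. Nor do they say whether replicate numbers mark litters, though Ctrl and TKO libraries of the same replicate number have consecutive serial numbers in their column names.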

Additional observations from a re-analysis of the deposited data

How the results depend on the processing

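Across 17 alternatives for each of 10 members, 150 of 170 log2 changes had the sign reported and 20 the other, and 0 had an unadjusted p under 0.05 (smallest 0.139). *Kdm4a* and *Daxx* kept their sign throughout. Those of the other sign lay between -0.137 and 0.129, some of them as far from 0 as the value reported. Without the low-count filter *Cbx1* was at -0.0098, and with the 3 identifiers of most counts left out, an alternative chosen after seeing the data, at -0.0025. In male libraries only, *Cbx1* was at -0.024 and *Kdm3a* at -0.137. With single libraries left out, *Cbx1* ranged from -0.048 to 0.154, *Cbx3* from -0.311 to 0.129, *Cbx5* from -0.051 to 0.169, *Kdm3a* from -0.070 to 0.163, *Kdm3b* from -0.040 to 0.118, *Kdm4b* from -0.222 to 0.0056, *Kdm4c* from -0.023 to 0.210 and *Atrx* from -0.402 to 0.0900. The causes were not tested.

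Over all genes the calls depended on the choices, although 0 members were called under any. The 27 calls of the edgeR fit used here, not a count from the authors, became 235 without a low-count filter. They became 9 with at least 10 counts in every library, 10 in male libraries only and 11 at an adjusted threshold of 0.01. DESeq2 gave 214 on the same genes and 226 with its default workflow. Leaving out single libraries gave 7 (without Ctrl replicate 2) to 81 (without TKO replicate 3), and 0 to 2 members whose groups did not overlap. A replicate block in the fit gave 45 calls over all genes and 0 members. Same-numbered libraries deviated together with correlations of 0.168, 0.0873 and 0.127, while Ctrl and TKO libraries of different numbers had -0.161 to 0.0398. The same-numbered values were thus the highest. The edgeR fit used here did not take the numbers as pairs, and whether they mark pairs was not settled.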

Other observations

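*Kdm3a* is a known target of the hypoxia response, so a list of 12 genes of that response was read beside it. Of these, 11 were tested, and *Car9*, at most 0.155 CPM in any library, was not. By edgeR 0 of 11 passed an unadjusted p of 0.05, and 5 of 11 were above 0. The lowest log2 change was that of *Adm*, a vasodilator peptide gene, at -0.33 (SE 0.711), and the highest that of *Pdk1*, a kinase that keeps pyruvate out of mitochondria, at 0.31 (SE 0.143). The median was -0.02, against 0.05 for *Kdm3a*.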
